A study of Mus musculus with 53 samples.

Results

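The elastic fibre genes of the mouse lung were followed through cigarette smoke exposure, its cessation and the sham procedure. The set was fixed by name and held 10 genes: Eln, Fbn1, Fbln5, Lox, Loxl1, Loxl2, Mfap4, Mfap5, Emilin1 and Ltbp4. For each gene the brightest probe set that was detected was used, and 8 of the 10 genes were measured, among 15030 genes tested in the series. Fbn1 has no probe set in the annotation used here, and both probe sets of Loxl2 are also annotated to Gm21451, so neither gene was analysed here.

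Lungs of 53 female C57BL/6 mice were hybridised, one array per mouse, in 9 groups of 6 mice, of which the 12-week smoke group had 5. Smoke mice breathed 4% mainstream cigarette smoke nose-only for 2 h a day on 5 days a week, for 2, 12 or 24 weeks. A pair of cessation groups had 12 weeks of smoke and then 12 weeks labelled as forced air (smoke-to-forced-air mice) or as room air (smoke-to-room-air mice). Forced air mice had the same nose-only procedure with air for 2, 12 or 24 weeks, and untreated mice, labelled time 0, had none. The protocol describes sham exposure for every cessation mouse, whereas its group label names either forced or room air. The labels were followed, and forced air at 24 weeks was the only 24-week control. The labels give no age in life and no hour of tissue collection. They do not say whether mice shared a cage, so the p-values measure the spread between these arrays.

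Elastic fibres give the alveolar wall, airways and vessels of the lung their recoil. Tropoelastin, the product of Eln, is secreted, laid down on a scaffold of fibrillin microfibrils and cross-linked on its lysines by the copper enzymes of the lysyl oxidase family. Most elastin is made while the alveoli form, the protein is very long-lived, and its breakdown by proteases such as macrophage elastase is a feature of emphysema. Fibulin 5 (Fbln5) brings tropoelastin and cross-linking enzymes to the microfibrils, and the latent TGF-beta binding protein 4 (Ltbp4) is needed for that deposition. MFAP4, MFAP5 and EMILIN1 are glycoproteins bound to microfibrils or to elastin.

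Values are signals of the MAS5 algorithm on the Affymetrix Mouse 430 2.0 array, a linear brightness scaled by the authors to a trimmed mean of 150. Brightness differs between probe sets for reasons unrelated to RNA amount, so levels are compared within a gene only. Changes are differences of group means of log2(signal + 16), with their standard error (SE), from 1 limma fit over the 53 arrays. Two-sided p-values were adjusted over the 15030 genes by Benjamini and Hochberg's method, and changes under 0.05 are called. All 8 probe sets used were detected on all 53 arrays. The share of probe sets with a deposited detection call of present ranged from 67.5% to 76.2% per array. The median of the Gapdh 3′ to 5′ signal ratio, which rises as RNA is degraded, was 1.85 in forced air mice at 2 weeks and 1.75 at 12 weeks, against 1.49 to 1.62 in the other 7 groups. All 5 lung epithelial markers (Sftpc, Sftpb, Scgb1a1, Ager and Hopx) were detected and tested.

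Eln (Entrez gene 13717, chromosome 5) was higher in smoke than in forced air lungs at 2 and 12 weeks, and was brightest in the smoke-to-room-air mice. At 2 weeks its signal was 178.9, 203.8 and 238.8 (lowest, median and highest) in smoke mice, against 121.6, 129.3 and 140.9 in forced air mice. At 12 weeks the 5 smoke mice had 198.5, 204.3, 229.5, 243.3 and 257.7, against 116.2, 161.8 and 196.2 in forced air mice. The groups did not overlap at either time. Eln rose 1.52-fold at 2 weeks (log2 0.60, SE 0.11, adjusted p = 5.62e-05) and 1.38-fold at 12 weeks (log2 0.46, SE 0.11, adjusted p = 0.00136). At 24 weeks the signal was 216.2, 242.3 and 254.6 in smoke mice, against 155.2, 189.4 and 253.6 in forced air mice, and only 1 of 6 smoke mice lay above every forced air mouse. That difference was not called (log2 0.26, SE 0.11, adjusted p = 0.080). It was called when forced air replicate 1 (log2 0.33) or replicate 6 (log2 0.31) at 24 weeks was left out.

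After cessation, Eln read 432.9, 486.4 and 574.3 in smoke-to-room-air mice and 186.6, 228.5 and 264.8 in smoke-to-forced-air mice, beside the 24-week forced air values above. The 6 smoke-to-room-air lungs lay above the other 47 lungs of the series, the highest of which was an untreated lung at 432.0. Eln was 2.38-fold higher in smoke-to-room-air than in forced air mice (log2 1.25, SE 0.11, adjusted p = 1.04e-12). It was also higher there than in continued smoke (log2 0.99, SE 0.11, adjusted p = 3.41e-10) and than in smoke-to-forced-air mice (log2 1.06, SE 0.11, adjusted p = 3.71e-10). Smoke-to-forced-air mice were not called against forced air mice (log2 0.19, 95% interval -0.02 to 0.40). By their label the smoke-to-room-air mice had also left the nose-only procedure, and there was no 24-week room air control. Against forced air or continued smoke, for any gene, the parts of smoke and of the procedure therefore cannot be told apart.

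Untreated mice had Eln signals of 213.1, 308.2 and 432.0. Set against them, Eln fell 2.23-fold in forced air mice at 2 weeks (log2 -1.16, SE 0.11, adjusted p = 2.40e-11), with every forced air mouse below every untreated one. The fall was smaller at 12 weeks (log2 -0.89, adjusted p = 5.87e-08) and at 24 weeks (log2 -0.60, adjusted p = 8.41e-05). Within forced air, Eln was higher at 24 than at 2 weeks (log2 0.56, SE 0.11, adjusted p = 3.48e-05). The mean Eln signal of the 3 smoke groups, 206.1 at 2 weeks, 226.7 at 12 weeks and 240.9 at 24 weeks, lay between forced air and untreated mice at each time. In the order of the 9 groups, only the highest group stood clear of its neighbour, and each of the others overlapped the next.

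**Figure D1:**
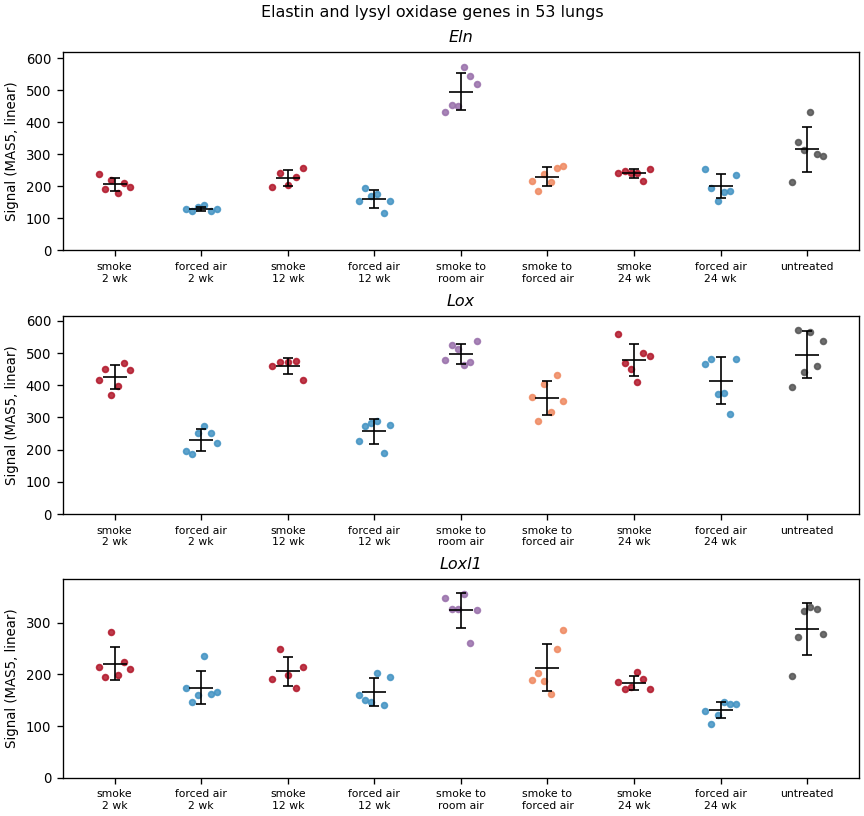
MAS5 signal (linear axis from 0) of Eln, Lox and Loxl1 in each of the 53 lungs, by group. Points are mice, the horizontal mark is the group mean and the bar its SD. For Eln, the 6 smoke-to-room-air mice lie between 432.9 and 574.3, above all other mice.

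Lox (Entrez gene 16948, chromosome 18), the founding lysyl oxidase, had a large early difference with smoke. At 2 weeks its signal was 368.6, 431.4 and 469.2 in smoke mice, against 185.1, 235.7 and 272.2 in forced air mice. The 12-week smoke mice had 415.7, 460.1, 471.8, 472.7 and 475.8, against 189.3, 275.3 and 289.9 in forced air mice. No smoke mouse overlapped a forced air mouse at these times. Lox rose 1.80-fold at 2 weeks (log2 0.85, SE 0.10, adjusted p = 1.00e-08) and 1.76-fold at 12 weeks (log2 0.81, SE 0.11, adjusted p = 2.76e-08). At 24 weeks the values were 411.6, 480.4 and 557.7 in smoke mice, against 310.1, 420.6 and 482.4 in forced air mice, and the groups overlapped (log2 0.21, SE 0.10, adjusted p = 0.139). The effect of smoke on Lox was smaller at 24 than at 2 weeks by a test of the difference itself (log2 -0.64, SE 0.14, adjusted p = 0.00735). The smoke means were 425.2, 459.2 and 479.9 at 2, 12 and 24 weeks, while the forced air means were 229.7, 256.5 and 414.8.

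In smoke-to-room-air mice Lox read 463.4, 495.7 and 537.5, and in smoke-to-forced-air mice 290.5, 356.4 and 432.8. Smoke-to-forced-air mice were lower than mice in continued smoke (log2 -0.41, SE 0.10, adjusted p = 0.00314), with 5 of 6 below every smoke mouse. The Lox signal in smoke-to-room-air mice was above forced air by log2 0.27 (adjusted p = 0.060), called only without forced air replicate 1, 2 or 6 at 24 weeks (log2 0.31 to 0.32) or with the 3′ to 5′ ratios as covariates (log2 0.28). The smoke-to-room-air mice lay above every smoke-to-forced-air mouse (log2 0.46, SE 0.10, adjusted p = 0.00764). The smoke-to-forced-air effect, taken against 24-week forced air, differed from the 12-week smoke effect by log2 -1.01 (SE 0.15, adjusted p = 1.37e-06). Untreated mice had 393.7, 498.3 and 570.6. Lox fell 2.08-fold in forced air mice at 2 weeks against untreated mice (log2 -1.05, SE 0.10, adjusted p = 9.15e-11) and 1.87-fold at 12 weeks (log2 -0.91, SE 0.10, adjusted p = 1.32e-08), with no overlap. The 24-week difference was not called (log2 -0.25, adjusted p = 0.088), but was without untreated replicate 1 (log2 -0.31) or forced air replicate 6 (log2 -0.29). From 2 to 24 weeks of forced air Lox rose 1.75-fold (log2 0.80, SE 0.10, adjusted p = 2.00e-08). A second Lox probe set, also detected on all 53 arrays, was called with smoke at 2 weeks (log2 0.58) and 12 weeks (log2 0.79), for forced air against untreated mice at 2 weeks (log2 -0.71) and 12 weeks (log2 -0.72), and for 24 against 2 weeks of forced air (log2 0.59). With it 3 calls were lost: the smaller effect of smoke at 24 than at 2 weeks (log2 -0.35, adjusted p = 0.229), smoke-to-forced-air mice against continued smoke (log2 -0.28, adjusted p = 0.172) and smoke-to-room-air against smoke-to-forced-air mice (log2 0.34, adjusted p = 0.316).

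Loxl1 (Entrez gene 16949, chromosome 9), the lysyl oxidase paralogue needed in mice for elastic fibre renewal in adult tissue, was read by 2 probe sets detected on all 53 arrays, which gave different calls with smoke. The brighter one, used here, averaged 211.5 over all arrays and the other 86.6. At 2 weeks the brighter one read 194.9, 212.0 and 282.0 in smoke mice, against 146.6, 163.8 and 236.2 in forced air mice. In the 12-week smoke mice it was 174.4, 190.5, 198.4, 214.6 and 249.5, against 140.6, 155.0 and 201.9 in forced air mice. The groups overlapped at both times and neither difference was called (log2 0.32, adjusted p = 0.061 at 2 weeks, and log2 0.29, adjusted p = 0.068 at 12 weeks). The 2-week difference was called without forced air replicate 4, the highest of its group (log2 0.40). The 12-week one was called without any one of forced air replicates 4 and 6 and smoke replicate 4 (log2 0.33 to 0.34), or with the sample title number in 3 ranges as a factor (log2 0.29, adjusted p = 0.0494). At 24 weeks the signal was 170.7, 179.9 and 204.1 in smoke mice, against 104.8, 135.3 and 146.1 in forced air mice, with no overlap. Loxl1 rose 1.36-fold there by this probe set (log2 0.44, SE 0.11, adjusted p = 0.00289). The second probe set was called higher at 2 weeks (log2 0.41, adjusted p = 0.00794) and 12 weeks (log2 0.41, adjusted p = 0.00371), and not at 24 weeks (log2 0.23, adjusted p = 0.133). Both probe sets were thus higher with smoke at each time, and which times were called turned on the probe set.

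Loxl1 was above forced air in both cessation groups. Its signal was 162.7, 195.2 and 284.8 in smoke-to-forced-air mice, and every one of them lay above every 24-week forced air mouse (log2 0.62, SE 0.11, adjusted p = 0.00213). With only the arrays of those 2 groups in the fit, the adjusted p was 0.056. Smoke-to-room-air mice read 259.8, 326.8 and 355.1, which was 2.32-fold above forced air (log2 1.21, SE 0.11, adjusted p = 1.75e-11). They were also above continued smoke (log2 0.77, SE 0.11, adjusted p = 6.96e-07) and above smoke-to-forced-air mice (log2 0.59, SE 0.11, adjusted p = 0.00132). The second probe set kept the first 3 of these calls, at log2 0.39, 0.73 and 0.50, and lost that between the cessation groups (log2 0.34, adjusted p = 0.128). Loxl1 read 197.1, 300.0 and 330.5 in untreated mice. It fell in forced air against untreated mice at each time, by 0.67 on the log2 scale at 2 weeks (adjusted p = 2.05e-05), by 0.73 at 12 weeks (adjusted p = 1.18e-05) and by 1.04 at 24 weeks (adjusted p = 5.31e-09). The second probe set was called lower at each time as well (log2 -0.69, -0.68 and -0.54). From 2 to 24 weeks of forced air Loxl1 fell by the brighter probe set (log2 -0.37, SE 0.11, adjusted p = 0.00700), and that call was lost with the 3′ to 5′ ratios as covariates (log2 -0.31, adjusted p = 0.080). The second probe set had the opposite sign there and was not called (log2 0.15, adjusted p = 0.275), so no direction is drawn for Loxl1 with time in forced air.

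Ltbp4 (Entrez gene 108075, chromosome 7) followed time more than smoke. Within forced air its signal was 82.8, 92.4 and 119.4 at 2 weeks, 105.8, 110.2 and 130.9 at 12 weeks, and 168.7, 179.1 and 225.9 at 24 weeks. The 24-week mice did not overlap the 2-week mice, and the gene rose 1.85-fold between them (log2 0.89, SE 0.08, adjusted p = 3.05e-12). Untreated mice stood between, at 131.3, 145.5 and 158.1. Against untreated mice, Ltbp4 fell at 2 weeks of forced air (log2 -0.54, SE 0.08, adjusted p = 9.69e-07) and at 12 weeks (log2 -0.32, SE 0.08, adjusted p = 0.00715), and rose at 24 weeks (log2 0.34, SE 0.08, adjusted p = 0.00176). The 12-week call was lost with the 3′ to 5′ ratios as covariates (log2 -0.26, adjusted p = 0.075).

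In smoke mice Ltbp4 read 97.7, 110.3 and 130.5 at 2 weeks. The 12-week smoke mice had 94.3, 113.6, 119.5, 131.3 and 133.0, and the 24-week smoke mice had 137.4, 153.4 and 180.5. The signal was lower in smoke than in forced air mice at 24 weeks (log2 -0.27, SE 0.08, adjusted p = 0.00795), with 5 of 6 smoke mice below every forced air mouse. The differences at 2 weeks (log2 0.21, adjusted p = 0.079) and 12 weeks (log2 0.04, adjusted p = 0.750) were not called. The 2-week difference was called without forced air replicate 2 (log2 0.26) or smoke replicate 3 (log2 0.24). The smoke effect at 24 weeks was lower than that at 2 weeks (log2 -0.48, SE 0.11, adjusted p = 0.00748). Ltbp4 was 181.9, 195.4 and 219.9 in smoke-to-forced-air mice, all above every mouse in continued smoke (log2 0.34, SE 0.08, adjusted p = 0.00102). It was 171.0, 178.0 and 196.8 in smoke-to-room-air mice, also higher than continued smoke (log2 0.22, SE 0.08, adjusted p = 0.0334). That call was lost without any one of continued-smoke replicates 1, 2 and 5 and smoke-to-room-air replicates 1, 2 and 6 (log2 0.19 to 0.22).

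Fbln5 (Entrez gene 23876, chromosome 12) moved over a narrower range and opposite to Ltbp4 with time. Its forced air signal was 828.9, 867.9 and 953.1 at 2 weeks, 733.5, 808.0 and 966.0 at 12 weeks, and 632.8, 689.3 and 755.6 at 24 weeks. It fell 1.27-fold from 2 to 24 weeks (log2 -0.35, SE 0.05, adjusted p = 1.91e-07), with no overlap. Smoke mice read 740.4, 767.6 and 813.2 at 2 weeks, all below every forced air mouse of that time (log2 -0.19, SE 0.05, adjusted p = 0.00951). The 12-week smoke mice had 713.9, 736.9, 748.7, 778.8 and 784.2, and the fall against forced air was small (log2 -0.14, SE 0.05, adjusted p = 0.0420). That call was lost without any one of smoke replicates 1, 2 and 3 or forced air replicates 1, 2 and 3 (log2 -0.14 to -0.10). Both smoke calls were also lost with the 3′ to 5′ ratios as covariates, at log2 -0.13 and log2 -0.05.

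At 24 weeks Fbln5 read 681.5, 694.2 and 752.7 in smoke mice, within the range of forced air mice (log2 0.03, 95% interval -0.07 to 0.13). Its effect of smoke was higher at 24 than at 2 weeks by log2 0.22 (SE 0.07, adjusted p = 0.0475), a call that was lost in many of the alternatives given in the closing part. Smoke-to-room-air mice read 682.5, 714.5 and 788.2, and smoke-to-forced-air mice 726.6, 779.8 and 817.4. The smoke-to-forced-air effect differed from the 12-week smoke effect by log2 0.31 (SE 0.07, adjusted p = 0.00197). Against untreated mice, at 702.3, 764.9 and 811.3, Fbln5 rose in forced air at 2 weeks (log2 0.20, SE 0.05, adjusted p = 0.00238) and fell at 24 weeks (log2 -0.15, SE 0.05, adjusted p = 0.0365). Both calls were lost with the 3′ to 5′ ratios as covariates, at log2 0.14 (adjusted p = 0.073) and log2 -0.12 (adjusted p = 0.086), and that at 24 weeks also with either use of the sample title number (log2 -0.13 and -0.11). A dim second probe set of Fbln5, with a mean signal of 13.7 against 765.6, gave no call in these comparisons. Its sign was opposite for smoke at 2 weeks (log2 0.02) and for 24 against 2 weeks of forced air (log2 0.08).

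Promoter windows, from 250 bases before to 50 after a start site, were available for 3 of the 8 measured genes in RefSeq on GRCm38.p6, as 6 windows. The first listed windows of Ltbp4 and Fbln5 are shown because these genes changed in opposite directions with time in forced air, and that of Emilin1 because the gene was called in none of the comparisons. Capitals mark the GC box GGGCGG, which the factor Sp1 can bind, and the SMAD element CAGAC of TGF-beta signalling, on either strand. Each sequence runs 5′ to 3′ on the gene's own strand.
Ltbp4, start 1, chr7:27337563-27337862, minus strand: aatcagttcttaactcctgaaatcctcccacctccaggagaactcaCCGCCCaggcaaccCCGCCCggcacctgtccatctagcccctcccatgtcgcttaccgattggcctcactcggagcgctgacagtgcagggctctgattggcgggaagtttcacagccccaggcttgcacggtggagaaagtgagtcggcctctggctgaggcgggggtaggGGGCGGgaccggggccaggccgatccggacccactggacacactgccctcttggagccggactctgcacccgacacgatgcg
Fbln5, start 1, chr12:101819070-101819369, minus strand: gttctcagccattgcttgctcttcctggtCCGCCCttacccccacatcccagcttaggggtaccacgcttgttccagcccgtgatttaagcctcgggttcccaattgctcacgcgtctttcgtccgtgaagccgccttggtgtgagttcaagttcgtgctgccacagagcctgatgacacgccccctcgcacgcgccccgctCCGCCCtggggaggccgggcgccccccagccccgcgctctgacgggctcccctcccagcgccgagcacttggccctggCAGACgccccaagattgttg
Emilin1, start 1, chr5:30913536-30913835, plus strand: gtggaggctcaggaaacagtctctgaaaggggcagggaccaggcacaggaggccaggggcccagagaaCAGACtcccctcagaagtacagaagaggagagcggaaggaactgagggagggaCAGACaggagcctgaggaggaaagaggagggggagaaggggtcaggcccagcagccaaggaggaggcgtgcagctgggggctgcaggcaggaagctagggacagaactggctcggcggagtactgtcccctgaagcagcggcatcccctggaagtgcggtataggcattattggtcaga
The windows of the 3 Ltbp4 starts held 3, 7 and 9 GC boxes and 0 SMAD elements each, those of starts 2 and 3 overlapping for most of their length. The Fbln5 window of start 1 held 2 GC boxes and 1 SMAD element, that of start 2 held 0 and 2, and the single Emilin1 window 0 and 2. Of all 32851 windows of this length, 35.7% hold a GC box and 49.6% a SMAD element. The E-box CACGTG of clock factors (7.15% of all windows), the AP-1 site TGANTCA (7.81%) and the TATA box TATAAA (13.6%) were in none of the 6 windows. No motif overlapped one of another kind, and a match or its lack says only which letters are in the window.

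**Figure D2:**
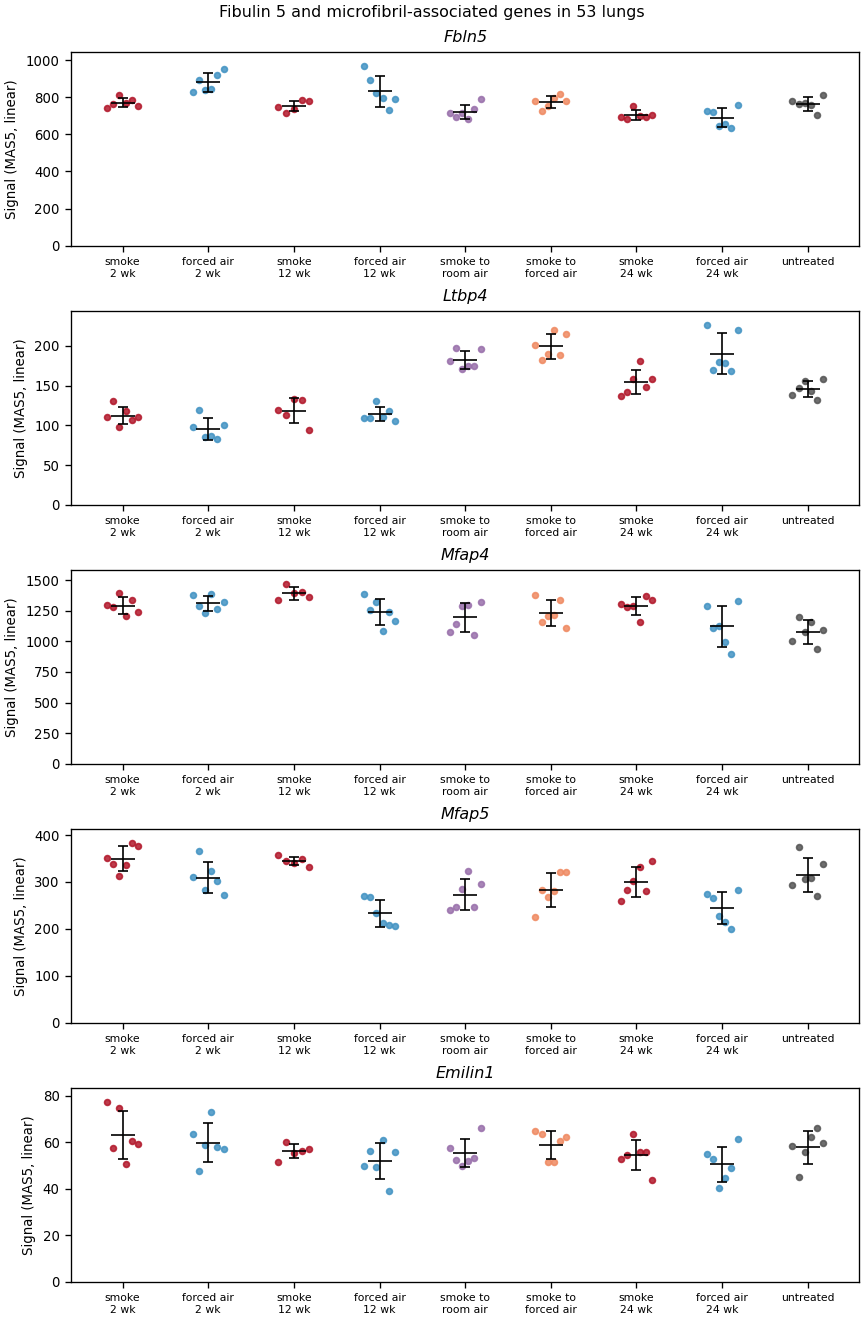
MAS5 signal (linear axis from 0) of Fbln5, Ltbp4, Mfap4, Mfap5 and Emilin1 in each of the 53 lungs, by group. Points are mice, the horizontal mark is the group mean and the bar its SD. Ltbp4 is lowest in forced air mice at 2 weeks, where the mean is 95.4, while Fbln5 is highest there, at 879.4.

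Mfap5 (Entrez gene 50530, chromosome 6), the microfibril glycoprotein MAGP-2, was higher with smoke at 12 and 24 weeks. The 12-week smoke mice had 331.8, 340.1, 345.1, 348.9 and 356.4, against 206.6, 222.7 and 269.4 in forced air mice, with no overlap (log2 0.54, SE 0.09, adjusted p = 5.05e-06). At 24 weeks the signal was 260.2, 293.0 and 344.4 in smoke mice, against 199.5, 247.2 and 281.9 in forced air mice (log2 0.29, SE 0.09, adjusted p = 0.0130). Without forced air replicate 5 the 24-week call was lost (log2 0.23, adjusted p = 0.060). At 2 weeks it was 312.7, 344.8 and 382.2 in smoke mice, against 272.6, 306.2 and 365.1 in forced air mice, and was not called (log2 0.17, adjusted p = 0.211). The second Mfap5 probe set was called at 2 weeks (log2 0.40, adjusted p = 0.00252) and not at 24 weeks (log2 0.19, adjusted p = 0.161). Mfap5 ranged from 240.3 to 323.2 in smoke-to-room-air mice and from 225.4 to 321.8 in smoke-to-forced-air mice, and neither cessation group was called against forced air, continued smoke or the other. Against untreated mice, at 270.8, 307.6 and 374.1, it fell in forced air at 12 weeks (log2 -0.41, SE 0.09, adjusted p = 0.00132) and 24 weeks (log2 -0.35, SE 0.09, adjusted p = 0.00403). The second probe set was called lower at 2 weeks too (log2 -0.34, adjusted p = 0.00601). The smoke-to-forced-air effect differed from the 12-week smoke effect by log2 -0.34 (SE 0.12, adjusted p = 0.066), which was not called. It was called with the second probe set (log2 -0.50, adjusted p = 0.00718), the 3′ to 5′ ratios as covariates (log2 -0.41), the title number in 3 ranges (log2 -0.34) and without the arrays of a Gapdh ratio over 2 (log2 -0.38). It was also called without any one of forced air replicates 1 and 2 at 12 weeks, forced air replicates 4 and 5 at 24 weeks, and smoke-to-forced-air replicates 5 and 6 (log2 -0.39 to -0.37).

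Mfap4 (Entrez gene 76293, chromosome 11), which binds tropoelastin and collagen, averaged 1289 ± 73 in smoke mice and 1123 ± 168 in forced air mice at 24 weeks (SD, n = 6 each). The rise was called (log2 0.21, SE 0.07, adjusted p = 0.0288), and the call was lost without any one of smoke replicates 1, 5 and 6 or forced air replicates 4 and 5 (log2 0.15 to 0.20). It was also lost with only the groups compared (log2 0.21, adjusted p = 0.109) and with the title number in 3 ranges (log2 0.18, adjusted p = 0.054). The mean signals were 1292 in smoke mice and 1310 in forced air mice at 2 weeks, and 1391 in smoke mice and 1241 in forced air mice at 12 weeks. Neither of these differences was called (log2 -0.02, adjusted p = 0.898, and log2 0.17, adjusted p = 0.094). The 12-week one was called without forced air replicate 1 (log2 0.20), with quantile normalization (log2 0.24) and with the 3′ to 5′ ratios as covariates (log2 0.23). Mfap4 rose in forced air at 2 weeks against untreated mice (log2 0.28, SE 0.07, adjusted p = 0.00282), and fell from 2 to 24 weeks of forced air (log2 -0.23, SE 0.07, adjusted p = 0.00645). Emilin1 (Entrez gene 100952, chromosome 5), which sits where elastin meets the microfibrils, was dim, with signals of 38.9 to 77.2 over all 53 lungs. It was called in none of the 15 comparisons with the settings given above, and its largest change was log2 -0.19 from 2 to 24 weeks of forced air (95% interval -0.36 to -0.02, adjusted p = 0.075). That change was called with quantile normalization (log2 -0.27) and without forced air replicate 2 at 2 weeks or replicate 6 at 24 weeks (log2 -0.23 each). A still dimmer second Emilin1 probe set, with a mean signal of 13.5 and detected on 37 arrays, had the opposite sign there (log2 0.04, not called).

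Of the 8 measured genes, 2 (Lox and Eln) were called higher and 1 (Fbln5) lower in smoke than forced air mice at 2 weeks. Over all genes 5.40% were called higher there and 3.72% lower. Mean signals in these smoke mice were 206.1 for Eln, 425.2 for Lox and 770.8 for Fbln5. Untreated mice averaged 315.9, 494.4 and 763.1 for the same genes, and 2-week forced air mice 129.9, 229.7 and 879.4. Against forced air at 12 weeks, 3 rose (Lox, Mfap5 and Eln) and 1 fell (Fbln5), where 12.5% and 10.5% of all genes did. At 24 weeks 3 rose (Loxl1, Mfap5 and Mfap4) and 1 fell (Ltbp4), against 11.1% and 6.68%. Without forced air replicate 5 the 24-week count was 2 genes instead of 4, and with the second brightest probe set of each gene that has one it was also 2 (Mfap4 and Ltbp4). The median change of the 8 genes was log2 0.19, 0.23 and 0.21 at 2, 12 and 24 weeks, against medians between -0.02 and 0.00 over all genes. No gene was called at all 3 times. The smoke effect at 12 weeks was not called different from that at 2 weeks for any of the 8 genes in limma (1 at an unadjusted p under 0.05), against 1.48% of all genes higher and 0.719% lower. Between 24 and 2 weeks it differed for 3, higher for Fbln5 and lower for Lox and Ltbp4, against 3.85% and 2.57% of all genes. For Eln that difference was not called (log2 -0.34, SE 0.15, adjusted p = 0.140).

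**Figure D3:**
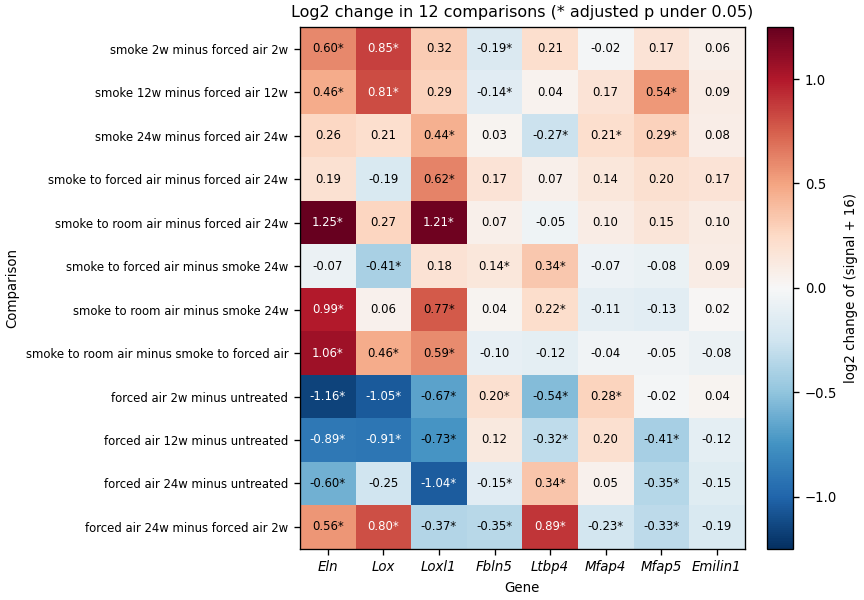
Log2 change of the 8 measured genes (columns) in the 12 comparisons between groups (rows, first-named group minus second). Colour and number give the change, and an asterisk marks an adjusted p under 0.05. The largest values are the rise of Eln (1.25) and Loxl1 (1.21) in smoke-to-room-air mice against forced air at 24 weeks, and the fall of Eln (-1.16) in forced air at 2 weeks against untreated mice.

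After smoke was stopped, 1 of the 8 genes (Loxl1) was called higher in smoke-to-forced-air than in forced air mice and 0 lower, where 1.46% of all genes were higher and 0.526% lower. For smoke-to-room-air mice the same comparison called 2 higher (Eln and Loxl1) and 0 lower, against 9.80% and 5.32%. Compared with continued smoke, smoke-to-forced-air mice had 2 genes higher (Ltbp4 and Fbln5) and 1 lower (Lox), against 7.68% and 7.45% of all genes. The Fbln5 call there (log2 0.14, SE 0.05, adjusted p = 0.0469) was lost without any one of 10 of the 12 arrays compared, all but smoke replicate 3 and smoke-to-forced-air replicate 2 (log2 0.12 to 0.15). Smoke-to-room-air mice had 3 higher than continued smoke (Eln, Loxl1 and Ltbp4) and 0 lower, against 9.12% and 9.06%. The 2 cessation arms differed in 3 genes, Eln, Loxl1 and Lox, all higher in smoke-to-room-air mice, where 0.459% of all genes were higher and 0.506% lower. With the second brightest probe sets Eln alone was called there. These comparisons share the forced air or the smoke arrays. The smoke-to-forced-air effect differed from the 12-week smoke effect in 2 genes, higher for Fbln5 and lower for Lox, against 5.50% and 5.65% of all genes.

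The sham procedure and the time in it were set against untreated mice. At 2 weeks of forced air 2 of the 8 genes rose (Mfap4 and Fbln5) and 4 fell (Eln, Lox, Loxl1 and Ltbp4), against 10.8% and 12.4% of all genes. At 12 weeks 0 rose and 5 fell (Lox, Eln, Loxl1, Mfap5 and Ltbp4), against 2.20% and 3.56%. At 24 weeks 1 rose (Ltbp4) and 4 fell (Loxl1, Eln, Mfap5 and Fbln5), against 4.71% and 9.39%. The Fbln5 call at 24 weeks was lost without any one of untreated replicates 1, 2, 3 and 6 or forced air replicates 3, 4 and 5 (log2 -0.15 to -0.12). Between 24 and 2 weeks of forced air 3 were called higher (Ltbp4, Lox and Eln) and 4 lower (Loxl1, Fbln5, Mfap5 and Mfap4), against 18.7% and 21.9% of all genes. The sign for Loxl1 turned on the probe set, as given above. The Mfap5 call was lost with its second probe set (log2 -0.12, adjusted p = 0.312), and the Mfap4 call with quantile normalization (log2 -0.16, adjusted p = 0.077). The smoke and the untreated comparisons share the forced air arrays.

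The 3′ to 5′ ratios moved with the forced air groups of 2 and 12 weeks, so a fit with both ratios as covariates cannot fully separate ratio from group. The part of RNA integrity in the changes was not tested. In that fit, forced air at 2 weeks against untreated mice had 654 genes called higher and 747 lower, against 1629 and 1862 without the ratios. Eln then gave log2 0.66 with smoke at 2 weeks and log2 -1.20 in forced air at 2 weeks against untreated mice. Lox gave log2 0.90 and log2 -1.06 in the same comparisons. Of the 7 genes called between 24 and 2 weeks of forced air, 4 were called with the ratios in the fit, and Loxl1, Mfap4 and Mfap5 were not. Over all 15030 genes, calls in that comparison went from 2813 higher and 3296 lower to 1504 and 2230 with the ratios, so calls were lost widely.

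Partner genes of the elastic fibre were counted over lists chosen with earlier results known. Of 20 tested microfibril and fibulin partners, 1, 3 and 1 were higher in smoke than forced air mice at 2, 12 and 24 weeks. At these times 2, 4 and 4 were lower. Over all genes 5.40%, 12.5% and 11.1% were called higher at these times and 3.72%, 10.5% and 6.68% lower, so that 3 of 20 higher at 12 weeks is near the share of all genes. Ltbp2, a microfibril protein that binds fibulin 5, rose at each time, to mean signals of 288.5, 381.8 and 388.4 in smoke mice against 230.5, 238.7 and 266.6 in forced air mice (log2 0.30, 0.64 and 0.52). Efemp1 (fibulin 3) fell by 0.19, 0.49 and 0.25 on the log2 scale. Mfap2, the relative of Mfap5 known as MAGP-1, fell by 0.29, 0.46 and 0.24. Emilin2 rose at 12 weeks of smoke (log2 0.45, SE 0.14) and was higher than forced air in both cessation groups (log2 0.72 in smoke-to-room-air mice and 0.48 in smoke-to-forced-air mice). Fn1 (fibronectin) rose at 12 weeks (log2 0.30), and Vtn (vitronectin) fell at 12 and 24 weeks (log2 -0.29 and -0.23). Of 8 tested cross-linking partners, 0 rose at 2 and 12 weeks of smoke and 1 at 24 weeks, and 0, 1 and 2 fell. The copper chaperone gene Atox1 rose at 24 weeks (log2 0.33, SE 0.06, adjusted p = 2.44e-05), and Pcolce, the procollagen C-proteinase enhancer, fell at 12 and 24 weeks (log2 -0.22 and -0.21).

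Proteases able to cut elastin rose with smoke in 2, 6 and 6 of 8 tested genes at 2, 12 and 24 weeks, and 0 fell, where 5.40%, 12.5% and 11.1% of all genes were called higher. Mmp12, the macrophage elastase, averaged 515.6, 989.7 and 771.0 in smoke mice, against 68.5, 45.1 and 67.7 in forced air mice (log2 2.67, 4.04 and 3.30). Ctsk (cathepsin K) gave log2 2.32, 2.80 and 2.47, and Mmp2 (gelatinase A) rose at 12 and 24 weeks (log2 0.86 and 0.79). Of 9 inhibitors of such proteases, 4, 4 and 5 rose and 0, 3 and 2 fell, where 3.72%, 10.5% and 6.68% of all genes were called lower. Timp1 rose at each time (log2 0.85, 1.54 and 1.04), as did Slpi, the secretory leukocyte protease inhibitor (log2 0.72, 1.26 and 1.30). The membrane-bound inhibitor gene Reck fell at 12 and 24 weeks (log2 -0.47 and -0.49). Among 15 TGF-beta and integrin partners, 1, 4 and 2 rose and 0, 2 and 2 fell. Tgfb1 rose at 12 and 24 weeks (log2 0.60 and 0.58), and Itga8, an integrin subunit of lung mesenchyme, fell (log2 -0.19 and -0.21).

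In smoke-to-room-air mice, where Eln and Loxl1 were highest, the proteases raised by smoke were lower than in continued smoke. Mmp12 averaged 113.1 there and 771.0 in continued smoke (log2 -2.70), and Ctsk 131.9 and 650.1 (log2 -2.19), so that Eln and these proteases changed in opposite directions. Mmp9 (gelatinase B) was higher than in continued smoke (log2 1.21, SE 0.22, adjusted p = 3.05e-05) and than in forced air (log2 1.10, SE 0.22, adjusted p = 0.000213). Of the 8 proteases, 1 was higher and 4 lower than in continued smoke, against 9.12% and 9.06% of all genes. Tgfb1 and Itgb6, of the epithelial integrin that activates latent TGF-beta, were higher than in forced air (log2 0.41 and 0.64).

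Forced air mice differed from untreated mice in some partners as well. Itgb3, the beta subunit of the vitronectin receptor, fell at 2 weeks (log2 -0.71, SE 0.11, adjusted p = 6.94e-06) and 12 weeks (log2 -0.36, adjusted p = 0.0445), and Tgfb3 fell at all 3 times (log2 -0.24, -0.48 and -0.27). Tnxb (tenascin X) rose at 24 weeks (log2 0.90, SE 0.17, adjusted p = 0.000177). Ltbp2 fell at 2 and 12 weeks (log2 -0.32 and -0.28).

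Markers of several lung cell types, among them cells that make elastic fibres, were read on the same arrays. Lung tissue was measured in bulk, so fewer cells of a type and less RNA per cell cannot be told apart. Of 11 smooth muscle markers (such as Acta2 and Myh11), 0 rose with smoke, and 1, 8 and 3 fell at 2, 12 and 24 weeks, with medians of log2 -0.17, -0.40 and -0.28. At these times 3.72%, 10.5% and 6.68% of all genes were called lower and 5.40%, 12.5% and 11.1% higher, which are also the shares for the other cell markers. Their summed signal at 12 weeks ranged from 2050 to 3029 in smoke mice and from 2997 to 3836 in forced air mice, while Lox, Eln and Mfap5 were higher in the same smoke mice. Against continued smoke, 10 of these markers were higher after cessation in forced air and 9 after cessation in room air, against 7.68% and 9.12% of all genes. Of 11 fibroblast markers, 1, 3 and 2 rose and 1, 2 and 1 fell with smoke, and their summed signal ranged from 9001 to 11700 over all 53 lungs. Of 10 endothelial markers, 0 rose and 4, 7 and 2 fell. Of 6 mesothelial markers, 0 rose and 0, 5 and 5 fell. Leukocyte and macrophage markers rose in 5, 5 and 6 of 8, with summed signals of 7061 to 9888 over the 3 smoke groups and 5387 to 7292 over the 3 forced air groups. No marker was at 0, and the part of cell make-up in the changes of the elastic fibre genes was not tested.

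Within groups, after each array's deviation from its group mean was taken, the 8 genes were weakly related. Of their 28 pairs 24 had a positive correlation, with a median r of 0.25 over 53 arrays and a range of -0.19 to 0.52. Eln and Lox gave the highest value. With the mean of the endothelial markers, within-group r was 0.60 for Fbln5, 0.54 for Mfap5, 0.51 for Mfap4 and 0.47 for Lox. It was 0.29 for Eln, 0.16 for Ltbp4, 0.11 for Emilin1 and -0.06 for Loxl1. With the fibroblast markers r ran from -0.12 to 0.36, and with the smooth muscle markers from -0.02 to 0.41. The genes on an array share its scaling, so these values describe the arrays.

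The 6 genes whose log2 values were most like those of Eln over the 53 arrays were Arntl, Leo1, Npas2, Fam124b, Adamts15 and Adamts4, with r of 0.89, 0.88, 0.88, 0.85, 0.84 and 0.83. Without the 2 arrays farthest from the median of Eln, Arntl gave 0.86. Within groups the same genes gave r of 0.49, 0.47, 0.23, 0.27, 0.58 and 0.40. Arntl and Npas2 are partners in the activating arm of the circadian clock, so Per2 and Dbp, clock genes of the opposite phase, were read as well, chosen after their values were seen. Mean Arntl was 201.1 in smoke-to-room-air mice, 112.3 in untreated mice, 71.1 in smoke-to-forced-air mice and 22.4 to 59.3 in the smoke and forced air groups. Per2 ran the other way, at 182.1 in smoke-to-room-air mice, 368.3 in untreated mice and 515.3 to 822.7 in the other 7 groups.

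Arntl was called in the comparisons in which Eln changed most, and in some in which Eln was not called. It rose in smoke-to-room-air mice against forced air (log2 1.99, SE 0.15, adjusted p = 1.16e-14), and fell in forced air against untreated mice at 2, 12 and 24 weeks (log2 -1.66, -1.46 and -1.16). For smoke at 2 and 12 weeks, where Eln and Lox rose, Arntl was not called (log2 0.11, adjusted p = 0.713, and log2 0.11, adjusted p = 0.642), nor was Per2 (log2 -0.02 and -0.09). Npas2 was not called either (log2 0.32, adjusted p = 0.148, and log2 0.34, adjusted p = 0.091). For Npas2, however, 5 of 6 smoke mice at 2 weeks and all 5 at 12 weeks lay above every forced air mouse. Dbp was called lower with smoke at 12 weeks (log2 -0.49). Where Eln was not called, Arntl rose with smoke at 24 weeks (log2 0.46, SE 0.15, adjusted p = 0.0212) and in smoke-to-forced-air against forced air mice (log2 0.67, SE 0.15, adjusted p = 0.0108). At 24 weeks Dbp was called lower with smoke as well (log2 -0.67). Within groups Loxl1 gave r of 0.46 with Arntl and -0.65 with Per2, Eln gave 0.49 and -0.50, and Lox gave 0.21 and -0.06. With Npas2 and Dbp the within-group values were weaker for Eln (0.23 and -0.22) and Loxl1 (0.15 and -0.10), and Lox gave -0.002 and -0.10. Over all 53 arrays, group differences included, r with Arntl was 0.71 for Loxl1, 0.56 for Lox, 0.58 for Ltbp4 and -0.39 for Fbln5. The part of the clock genes, or of the hour of collection, in the changes of the elastic fibre genes was not tested.

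**Figure D4:**
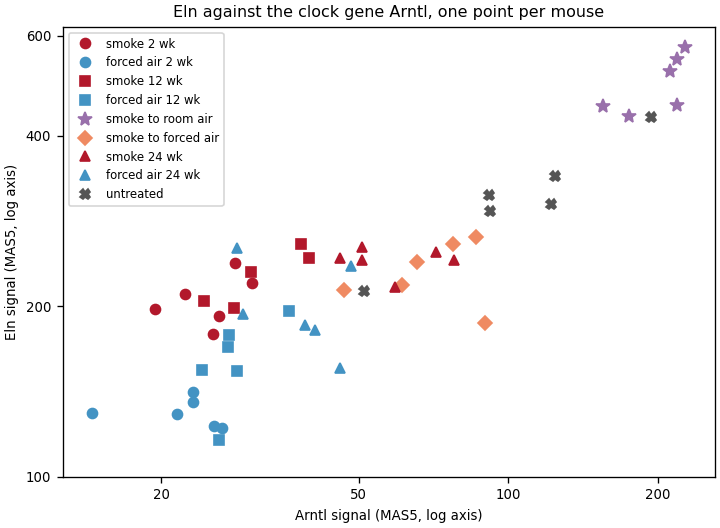
Signal of Eln (vertical log axis) against that of the clock gene Arntl (horizontal log axis) in each of the 53 lungs, marked by group. The 6 smoke-to-room-air mice lie at the upper right with 1 untreated mouse beside them, and the 2-week smoke mice lie above the 2-week forced air mice at similar Arntl.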

How the data were processed

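The files hold, for each array and probe set, a signal, a detection call and a detection p-value. Per the submitters' processing notes the authors used MAS5 (version not given in the sources used here). Deposited signals are linear intensity values whose 2% trimmed mean is 150 on each array. The authors' detection p-value per probe set was deposited beside them. RNA (50 ng) was amplified with the NuGEN Ovation system, per the labels' protocols. Arrays have no read depth, and their number limits the precision.

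Control probe sets and probe sets naming no gene or several were left out: 34945 of 45101 name 1 gene, 932 several and 9160 none. Kept were those detected (p under 0.05) on 50% or more of any group's arrays, and the brightest kept probe set stood for its gene. The model, limma 3.58.1 (R 4.3.3; lmFit and eBayes with trend), was fitted to log2(signal + 16), which understates changes of dim genes. Tests were two-sided, with Benjamini-Hochberg adjustment over 15030 genes and a threshold of 0.05. The script was tested on simulated data. Figures were drawn with matplotlib 3.10.9 in Python 3.11.15. Gene positions and promoters come from RefSeq (GRCm38.p6).

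Members, gene lists and tests were chosen with earlier results of these data known. Named were all 10 members, up to 3 called genes per partner list, comparison and direction by largest change, and the 6 genes most correlated with Eln. Arrays were grouped by their labels, and replicate numbers follow accession order. The 11 alternatives were scaling, pseudocount, detection filter, arrays in the fit, choice of probe set in 2 ways, sample title number in 2 ways, RNA integrity in 2 ways, and leaving out each array.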

Additional observations from a re-analysis of the deposited data

Results flagged for a closer look

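In 5 of the 72 combinations of gene and group tested, 1 array stood apart from its group by Dixon's criterion, which chance alone gives in about 1 of 20. Eln was lowest in smoke replicate 5 at 24 weeks, at 216.2. Fbln5 was highest in smoke replicate 3 at 24 weeks, at 752.7. Lox was lowest in smoke replicate 5 at 12 weeks, at 415.7. Loxl1 was lowest in smoke-to-room-air replicate 5, at 259.8, and highest in forced air replicate 4 at 2 weeks, at 236.2.

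The effect of smoke differed between times in tests of the difference itself. From 2 to 24 weeks it differed by log2 0.22 for Fbln5 (1.16-fold), by log2 -0.64 for Lox and by log2 -0.48 for Ltbp4. The effect left in smoke-to-forced-air mice differed from the 12-week effect by log2 0.31 for Fbln5 and by log2 -1.01 for Lox.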

How the results depend on the processing

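Of 120 results (8 genes in 15 comparisons) 51 were called, and 30 of these kept their call in every alternative run. Of the 21 that lost it in some alternative, 8 were of Fbln5, and these were all 8 of its called results. Over 2904 alternative values, 2754 kept their side of the threshold, 93 lost a call, 48 gained one and 9 reversed. The 2754 include 74 values that were called in neither fit and whose sign differed between the fits. The second brightest probe set of each gene was added as an alternative after seeing the data, since the probe set of largest SD is the one already used for Lox and Loxl1. The 27 called results of Eln, Lox and Loxl1 lost their call in 7 of 615 alternative values and reversed in 1, all of Lox or Loxl1 and given in the report. The loss of 5 of these calls and the reversal (Loxl1, forced air at 24 against 2 weeks, log2 0.146) came with the second brightest probe set (Eln, Ltbp4 and Mfap4 have no second one that passed the filter). With that choice the counts of genes called became 2 for smoke at 24 weeks, 1 for smoke-to-forced-air against continued smoke, 1 between the cessation groups, 4 for forced air at 24 against 2 weeks and 1 for the smoke effect at 24 minus 2 weeks, against 4, 3, 3, 7 and 3. Fbln5 reversed 4 times with its dim probe set, which both probe set alternatives use: log2 0.016 for smoke at 2 weeks, -0.12 for forced air at 2 weeks against untreated, 0.082 for forced air at 24 against 2 weeks, and -0.12 for the smoke effect at 24 minus 2 weeks, none of them called. The Fbln5 smoke effect at 24 minus 2 weeks was also lost without any one of 15 arrays, and with quantile normalization, no detection filter, only the groups compared, either use of the title number, or the 3′ to 5′ ratios (adjusted p 0.052 to 0.212 over these settings). The number of genes called for smoke-to-forced-air against forced air was 1, and became 2 with quantile normalization, with the 3′ to 5′ ratios as covariates and without the 2 arrays of a Gapdh ratio over 2, and 0 with only the groups compared. Leaving out 1 array gave 1 to 2 (2 without forced air replicate 1 or 6, when Fbln5 was called at log2 0.18 or 0.20). For forced air at 24 against 2 weeks the count of 7 became 4 with the ratios as covariates, a setting in which calls over all genes fell as well. For the smoke effect at 12 minus 2 weeks the count of 0 became 1 without the 2 arrays of high ratio (Mfap5, log2 0.45). For smoke at 24 weeks the count of 4 ranged from 2 to 5 leaving out 1 array. The cause was not tested. No paired analysis was possible because the labels carry no replicate numbers.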
